A study of Mus musculus with 6 samples.

Results

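The expression of 10 genes for selenium proteins, of the 27179 genes counted in each library, was described across 6 mouse liver libraries. They were taken by name: the selenoproteins Selenop, Selenof, Gpx1, Gpx3, Gpx4, Dio1, Sephs2 and Msrb1, and the selenium-binding proteins Selenbp1 and Selenbp2. The libraries came from livers of C57BL/6 mice, 3 from wild type (WT1 to WT3) and 3 from Mettl3-deficient mice (D1 to D3, numbered as in the labels). Mettl3 is the enzyme that writes N6-methyladenosine (m6A) on RNA. No treatment is labelled for either group, and neither the mice's age and sex nor how Mettl3 was made deficient is stated in the sources used here. Libraries of RNA depleted of ribosomal RNA held 31960205 to 36025772 counts each. Every level below is in CPM, counts scaled to a common library size, here with TMM factors that correct for library composition. The sample size n is 3 libraries per group. Each library is called a liver below, though the labels do not say that each is a separate animal. Changes are given on the log2 scale as Mettl3-deficient minus wild type, with ± for the SE after a change and for the SD after a level. A gene was called, and is said to have risen or fallen, at an adjusted p under 0.05 (edgeR's quasi-likelihood test with Benjamini-Hochberg adjustment over all 14380 tested genes). Each adjusted p comes from edgeR unless another tool is named.

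Selenoproteins carry selenocysteine, the selenium analogue of cysteine, usually at the active site. It is inserted at an in-frame UGA codon, normally a stop, and this needs a hairpin in the 3′ untranslated region, a dedicated tRNA and a set of protein factors. The liver takes up dietary selenium, builds it into its own redox enzymes and exports it to other organs in selenoprotein P (Selenop). Selenium-binding proteins bind selenium in another way.

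The coding sequences show the difference between the 2 kinds of member. In the mRNA chosen for each gene from the GENCODE M21 annotation (GRCm38), each of the 8 selenoprotein members had in-frame TGA codons ahead of its stop, at the positions annotated as selenocysteine, and Selenbp1 and Selenbp2 had 0. The windows below give the coding strand around that codon for members with 1 such codon, with the TGA in capitals. They are shown because this codon is what makes each gene a selenoprotein gene.

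Gpx1: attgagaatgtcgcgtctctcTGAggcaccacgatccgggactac
Gpx3: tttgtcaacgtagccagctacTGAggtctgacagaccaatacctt
Gpx4: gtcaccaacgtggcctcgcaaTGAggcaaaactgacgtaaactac
Dio1: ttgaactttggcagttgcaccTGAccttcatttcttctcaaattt
Sephs2: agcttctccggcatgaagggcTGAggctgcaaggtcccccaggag
Selenof: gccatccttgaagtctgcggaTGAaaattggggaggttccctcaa
Msrb1: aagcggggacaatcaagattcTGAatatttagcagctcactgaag

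Counted from the start codon, the TGA was codon 47 of 201 in Gpx1 (chr9:108339451-108339453), codon 73 of 226 in Gpx3 (chr11:54907256-54907258) and codon 73 of 197 in Gpx4 (chr10:80054737-80054739). It was codon 126 of 257 in Dio1 (chr4:107297700-107297702, minus strand) and codon 63 of 452 in Sephs2 (chr7:127273731-127273733, minus strand). In Selenof it was codon 93 of 162 (chr3:144590645-144590647), and in Msrb1 it was codon 95 of 116 (chr17:24740158-24740160), with 21 codons after it. All of these lie in coding exons. Selenop differed from the other members in holding 10 such codons, the first at codon 59 (chr15:3274848-3274850). The end of its coding sequence, stop included, holds 7 of the 10, from codon 318 to codon 377 of 380, and is printed with those codons in capitals because it is the selenium-carrying tail of the plasma protein.

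Selenop: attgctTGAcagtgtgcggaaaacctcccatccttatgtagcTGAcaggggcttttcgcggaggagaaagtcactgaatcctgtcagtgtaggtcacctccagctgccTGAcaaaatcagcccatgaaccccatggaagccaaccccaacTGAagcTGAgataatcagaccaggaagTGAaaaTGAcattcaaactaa

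**Figure D1:**
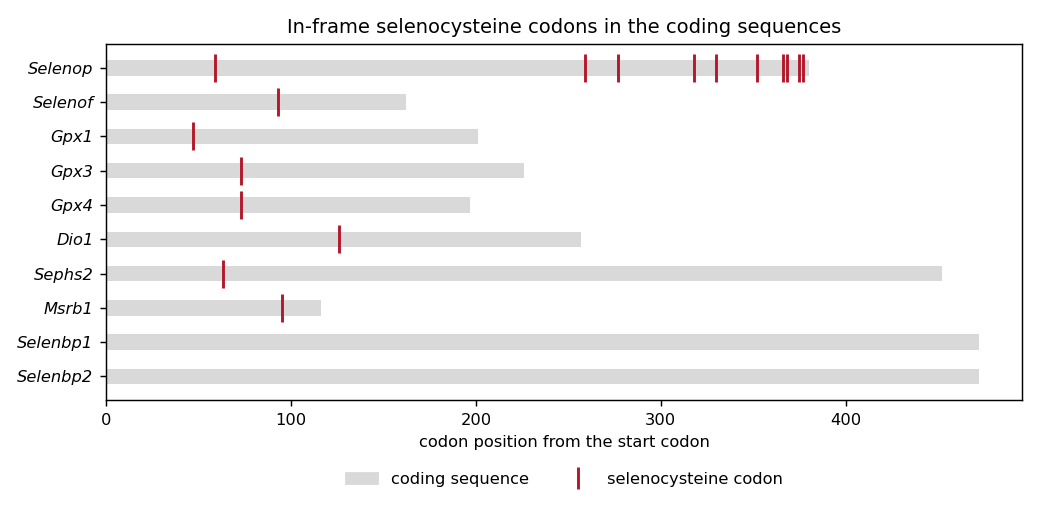
Coding sequences of the 10 members, drawn to scale in codons from the start codon (x axis), with red ticks at in-frame selenocysteine codons. Selenop has 10 ticks, most of them near its end, the other selenoprotein members have 1 each, and Selenbp1 and Selenbp2 have 0.

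The libraries did not all resemble each other. WT1 stood apart: a chi-square of its counts against those of WT2 and WT3 gave 288 and 282 per degree of freedom, and WT2 against WT3 gave 16.2, so values are also given without it. The Mettl3-deficient libraries also differed among themselves, with 122 for D1 against D2, 85.0 for D1 against D3 and 231 for D2 against D3. WT1, D1 and D2 held 6514, 4757 and 5036 counts of Y-linked genes, and the other 3 libraries held 6 to 11, so the sexes were not balanced between the genotypes. Among the wild-type libraries only WT1 held such counts, so fits without WT1 confound sex and genotype further. Whether WT1 stood apart for its sex or for another reason cannot be told apart here. Mettl3 itself was at 13.4, 14.3 and 12.1 CPM in wild-type livers and at 5.96, 6.60 and 4.94 CPM in Mettl3-deficient livers, in the direction of the labels. The summed level of 5 hepatocyte markers (Alb, Apoa1, Ttr, Tf and Serpina1c) was 144029 to 182462 CPM in wild-type and 59457 to 87944 CPM in Mettl3-deficient livers. Most of that sum was Alb, at 108639 to 141166 CPM in wild-type and 32061 to 53329 CPM in Mettl3-deficient livers. Of these 5, Alb and Serpina1c fell. Not called were Apoa1, with a log2 change of -0.79 (adjusted p = 0.0789), Ttr (-0.84, 0.113) and Tf (0.16, 0.732). Summed markers of sinusoidal endothelium (4 genes) ran from 117 to 174 CPM in wild-type and from 97.9 to 125 CPM in Mettl3-deficient livers, and those of cholangiocytes (4 genes) from 10.1 to 24.6 and from 24.6 to 43.5 CPM. Those of Kupffer cells (4 genes) ran from 76.9 to 307 CPM, lowest in WT1, and from 258 to 481 CPM. The erythroid markers Hba-a1 and Hbb-bs both fell (summed 19.7 to 38.4 and 3.48 to 6.79 CPM), and the neutrophil markers S100a8 and S100a9 summed to 0.778 to 1.67 and 2.31 to 4.47 CPM. Stellate cell markers (4 genes) ran from 247 to 307 and from 195 to 360 CPM, and the lymphocyte markers Cd3e and Cd79a from 0.739 to 1.46 and from 1.39 to 1.48 CPM. Of the endothelial, cholangiocyte, Kupffer cell, neutrophil, stellate cell and lymphocyte markers, Lyve1 fell, Sox9 and S100a9 rose, and the others were not called. The adipocyte markers Adipoq and Plin1 and the kidney tubule markers Umod and Slc34a1 had 0 counts in all 6 libraries, and the kidney marker Slc22a6 was at 0.370 CPM in 1 wild-type library and at 0 in the other 5. In bulk tissue, fewer hepatocytes and less RNA per hepatocyte cannot be told apart, and the part of these shifts in the results below was not tested.

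Most of these selenium genes were lower in Mettl3-deficient livers. Of the 10 members, 6 fell (Selenop, Dio1, Sephs2, Msrb1, Selenbp1 and Selenbp2), 0 rose, and Selenof, Gpx1, Gpx3 and Gpx4 were not called. The count of 0 that rose was also 0 by DESeq2, and neither Gpx3 nor Gpx4, the members above 0, had an unadjusted p under 0.05. Of all tested genes 23.8% were called, 10.5% lower and 13.3% higher. The median log2 change was -0.97 over the 10 members and 0.01 over all tested genes. In 8 of the 10 members the 3 Mettl3-deficient livers all lay below the 3 wild-type livers, a separation that 21.9% of all tested genes showed in that direction, and 45.7% in either direction. The members were chosen with results of these data known, so these counts describe the list. With DESeq2, 8 members fell, Selenof and Gpx1 being the added calls. DESeq2 also called more of all tested genes, 31.8% against 23.8% by edgeR, and called 2153 lower against 1514. When a library was left out, 6 members fell without WT1, 4 without D3, 2 without WT2, and 1 each without WT3, D1 or D2.

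**Figure D2:**
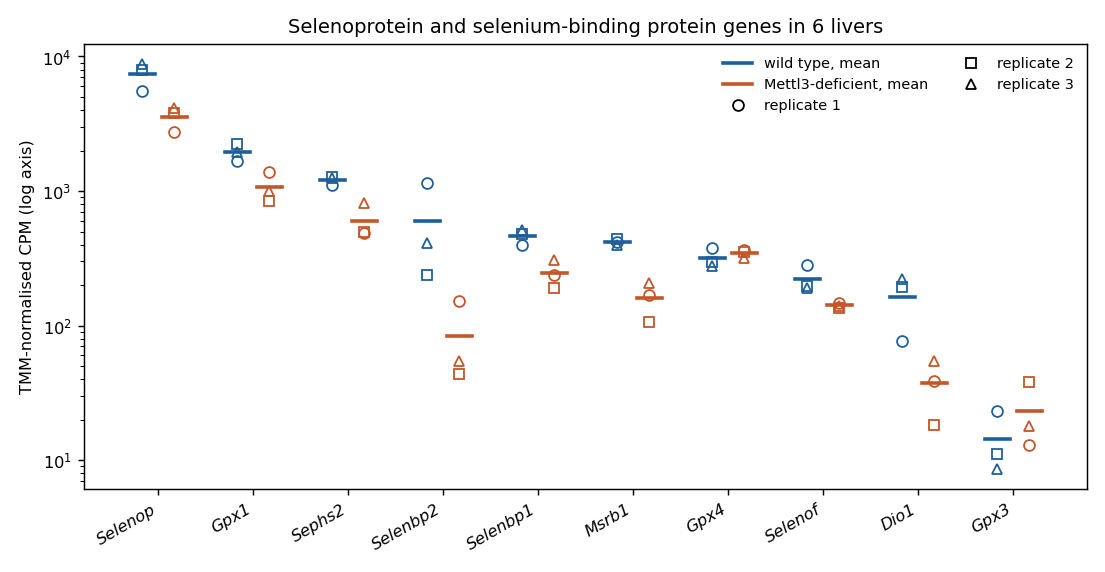
TMM-normalised CPM of each member (y axis, log scale) in the 6 livers, with members ordered by their wild-type mean (x axis), symbols for replicates 1 to 3 and bars for group means. The Mettl3-deficient values of Selenop, Gpx1, Sephs2, Selenbp2, Selenbp1, Msrb1, Selenof and Dio1 all lie below the wild-type values, while those of Gpx4 and Gpx3 overlap them.

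**Figure D3:**
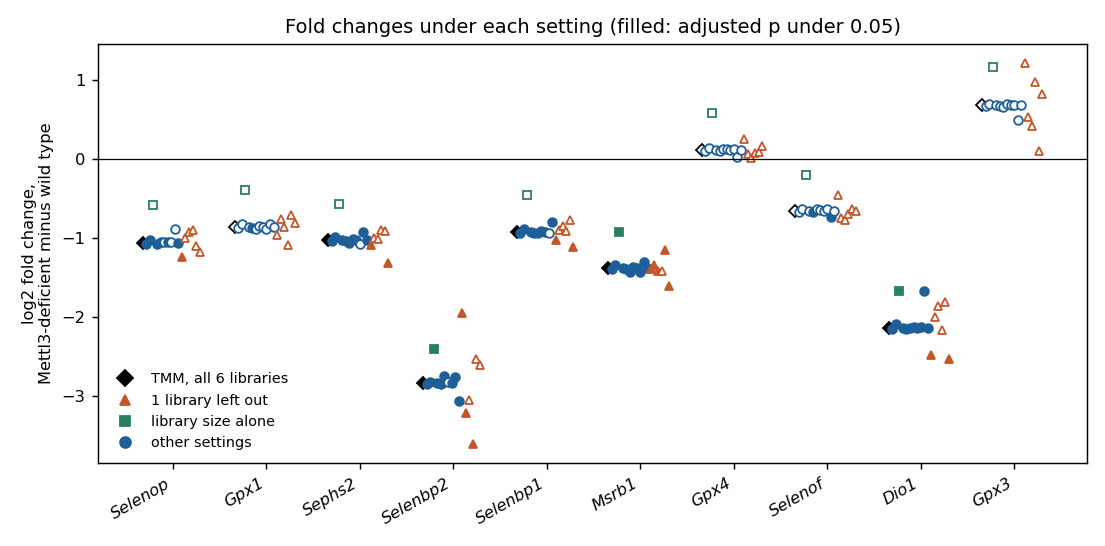
log2 fold change of each member, Mettl3-deficient minus wild type (y axis), under each processing setting (symbols, filled where the adjusted p is under 0.05), with members on the x axis. Each member stayed on its side of 0, while the calls of Selenop, Sephs2, Selenbp1, Selenbp2 and Dio1 were lost in several fits that left out 1 library (open triangles).

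Selenop and Sephs2, the genes for selenium export and for the selenium donor, both fell to about the same extent. Selenop (Entrez 20363, chromosome 15, 3270767 to 3280510), the plasma selenium carrier, was at 5514, 7960 and 8762 CPM in the 3 wild-type livers and at 2751, 3797 and 4157 CPM in the 3 Mettl3-deficient livers. The groups did not overlap, and replicate 1 was the lowest in each. The means were 7412 ± 1692 and 3568 ± 731 CPM (SD, n = 3), a log2 change of -1.05 ± 0.31 (SE; adjusted p = 0.0428). This call was lost when WT2 (adjusted p = 0.131), WT3 (0.145), D1 (0.164), D2 (0.0617) or D3 (0.0555) was left out, and it was kept without WT1 (-1.23, adjusted p = 0.0279). It was also lost with no filter on low counts (0.0532) and with the replicate number as a block (0.0747). Sephs2 (Entrez 20768, chromosome 7, 127271879 to 127274059), a selenoprotein that makes selenophosphate, the donor for selenocysteine synthesis, was at 1116, 1277 and 1255 CPM in wild-type livers and at 484, 495 and 812 CPM in Mettl3-deficient livers. D3 stood nearest to the wild-type values without reaching them. The Sephs2 means were 1216 ± 87.4 and 597 ± 186 CPM, a log2 change of -1.03 ± 0.28 (adjusted p = 0.0341). Its call was lost without WT2 (adjusted p = 0.105), WT3 (0.101), D1 (0.135) or D2 (0.0724), and with the replicate number as a block (0.0547). With scaling by library size alone, which moved the median over all tested genes to 0.49, the values were -0.57 for Selenop (adjusted p = 0.133) and -0.56 for Sephs2 (0.105).

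The summed level of all 24 selenoprotein genes was 10331, 13368 and 13809 CPM in wild-type livers and 6050, 6386 and 7332 CPM in Mettl3-deficient livers, 1.90 times as high in the wild type on average. Selenop alone made up 53.4%, 59.5% and 63.4% of that sum in wild-type livers and 45.5%, 59.5% and 56.7% in Mettl3-deficient livers. These shares overlapped between the groups.

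The upstream sequence of Selenop is printed because it is the most highly expressed member. RefSeq gives Selenop 3 start sites, and matches to the motifs searched were found ahead of the most downstream of them. The 100 bases before that start (GRCm38.p6, chr15:3270877-3270976, plus strand) are given with the matches in capitals: the forkhead core TGTTTAC, here on the opposite strand, begins 24 bases and the TATA motif TATAAA begins 10 bases ahead of the start.

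Selenop upstream: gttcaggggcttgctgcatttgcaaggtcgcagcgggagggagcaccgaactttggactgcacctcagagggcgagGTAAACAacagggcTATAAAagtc

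On either strand of the 300-base promoter windows, TGTTTAC was present in 3.65% and TATAAA in 13.6% of 32851 windows of all genes, several per gene where a gene has several starts. Among the 10 members, TGTTTAC was found in 1 (Selenop) and TATAAA in 5 (Selenop, Sephs2, Msrb1, Selenbp1 and Selenbp2). Counted from the start site, the TATAAA match began at -10 in Selenop and at -29 in Sephs2. On the opposite strand, it began at -241 in Msrb1, at -113 in Selenbp1 and at -103 in Selenbp2. Members were counted per gene over all their windows, so these counts do not compare directly with the percentages of windows. The E-box CACGTG was found in Sephs2 only, against 7.15% of all windows. The HNF4 core CAAAGTCCA (0.475% of all windows) and the antioxidant response core TGACNNNGC (12.4%) were found in none of the members' windows. These matches describe letters and were not measured as binding.

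Dio1, the deiodinase that activates thyroid hormone in the liver, had the largest relative fall among the selenoprotein members. Dio1 (Entrez 13370, chromosome 4, 107291465 to 107307168) was at 76.8, 193 and 221 CPM in wild-type livers and at 38.6, 18.4 and 55.0 CPM in Mettl3-deficient livers. WT1 was far below the other wild-type livers, yet above each Mettl3-deficient liver. The means were 164 ± 76.4 and 37.3 ± 18.3 CPM (SD, n = 3), and Dio1 was 4.39-fold lower (log2 change -2.13 ± 0.50, adjusted p = 0.0244). Without WT1 the log2 change of Dio1 was -2.48 (adjusted p = 0.00996). The call was lost without WT2 (adjusted p = 0.0746), WT3 (0.0703), D1 (0.0810) or D2 (0.0582). Among 5 genes of thyroid hormone handling set beside it, 2 fell and 0 rose, against 10.5% and 13.3% of all tested genes. Their median log2 change was -0.84, with all 5 values below 0. Thrb, a thyroid hormone receptor, had a log2 change of -0.87 ± 0.26 (adjusted p = 0.0434), and its call was lost without any 1 library except D3, with adjusted p up to 0.122. The Thrb call was also lost with upper-quartile factors (0.0573), with the Y-linked covariate (0.0596) and with library size alone (-0.42, 0.196). Thrsp, a thyroid hormone-responsive regulator of lipogenesis, had a log2 change of -5.51 ± 0.94 (adjusted p = 0.0099) and kept its call whichever library was left out. Ttr, a plasma carrier of the hormone and also one of the hepatocyte markers above, had a value of -0.84 (adjusted p = 0.113), and Thra, another thyroid hormone receptor, one of -0.14 (0.694), which was 0.01 without WT1 and 0.32 with library size alone.

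Msrb1, which repairs oxidised methionine in proteins, gave the smallest p of the 10 members. Msrb1 (Entrez 27361, chromosome 17, 24736593 to 24742778) was at 415, 442 and 399 CPM in wild-type livers and at 170, 106 and 208 CPM in Mettl3-deficient livers. The wild-type livers were close together and every Mettl3-deficient liver was far below them. The means were 419 ± 21.9 and 161 ± 51.4 CPM (SD, n = 3), and Msrb1 was 2.60-fold lower (log2 change -1.38 ± 0.27, adjusted p = 0.013). The call was lost without D1 (adjusted p = 0.0511) and was kept under the 16 other settings. Of the genes for its relatives that use cysteine in place of selenocysteine, Msra had a log2 change of -0.67 ± 0.21 (adjusted p = 0.051) and was not called. Msra was called by DESeq2 (0.0131) and limma-voom (0.0477), with the filter on CPM (0.0490), and without WT1 (0.0483) or D3 (0.0316). Of 6 tested cysteine homologues of selenoproteins, 0 rose and 0 fell by edgeR, against 13.3% and 10.5% of all tested genes. Of the 6, 2 had an unadjusted p under 0.05 (Msra and Gpx7), and the median over the 6 was -0.36. Gpx7, a glutathione peroxidase of the endoplasmic reticulum, was at 1.81 to 5.66 CPM in wild-type and at 6.71 to 15.3 CPM in Mettl3-deficient livers (adjusted p = 0.0561), and it was called by DESeq2 (0.0109) and with library size alone (0.0125).

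The 3 glutathione peroxidase members did not move together. Gpx1 (Entrez 14775, chromosome 9, 108339080 to 108340342), which reduces hydrogen peroxide in the cytosol, was at 1664, 2220 and 1961 CPM in wild-type livers and at 1391, 841 and 993 CPM in Mettl3-deficient livers. These values did not overlap, but the nearest pair, WT1 and D1, were close. The log2 change of Gpx1 was -0.86 ± 0.28, which was not called by edgeR (adjusted p = 0.0603) and was called by DESeq2 (adjusted p = 0.00347). Gpx4 (Entrez 625249, chromosome 10, 80047166 to 80056439), which reduces lipid peroxides in membranes and has processed pseudogenes that can share its reads, was at 381, 297 and 277 CPM in wild-type livers and at 362, 354 and 317 CPM in Mettl3-deficient livers. The groups overlapped, with a log2 change of 0.11 ± 0.21 (adjusted p = 0.717). Gpx3 (Entrez 14778, chromosome 11, 54902854 to 54910387), the plasma form made mainly by the kidney, was at 23.2, 11.1 and 8.61 CPM in wild-type livers and at 12.9, 38.2 and 18.1 CPM in Mettl3-deficient livers. Its range was wide in each group, and the log2 change was 0.69 ± 0.50 (adjusted p = 0.345). Without WT1 the log2 change was 1.22 for Gpx3 (adjusted p = 0.0963), 0.26 for Gpx4 (0.356) and -0.96 for Gpx1 (0.0555).

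Selenof (Entrez 93684, chromosome 3, 144570427 to 144597677), a selenoprotein of the endoplasmic reticulum that acts with the glycoprotein folding sensor, was at 283, 196 and 189 CPM in wild-type livers and at 148, 136 and 139 CPM in Mettl3-deficient livers. WT1 was the highest, the reverse of its place in Selenop and Dio1, and the groups did not overlap. The log2 change of Selenof was -0.66 ± 0.21, which was not called by edgeR (adjusted p = 0.0569), and it was called by DESeq2 (adjusted p = 0.0102) and with a covariate for Y-linked counts (adjusted p = 0.0314). It was -0.45 without WT1 (adjusted p = 0.0816).

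Selenbp1 and Selenbp2 lie on the same chromosome and are close copies. Selenbp1 encodes a methanethiol oxidase that binds selenium, and Selenbp2 its near twin. Their coding sequences, 1419 bases each, differed at 18 bases (98.7% identity), and the longest stretch without a difference was 193 bases. Of all stretches of 50 bases in the Selenbp1 mRNA, 52.3% were also in that of Selenbp2, and of those of 100 and 150 bases 21.3% and 6.97% were. Neither read length nor the handling of reads that map to several places is stated in the sources used here, so the division of counts between this pair is uncertain. Coding bases 361 to 450 are shown with the 4 differing bases in capitals, as the kind of stretch that tells the pair apart.

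Selenbp1: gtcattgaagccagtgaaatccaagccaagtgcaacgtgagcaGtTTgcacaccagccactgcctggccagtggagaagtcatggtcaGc
Selenbp2: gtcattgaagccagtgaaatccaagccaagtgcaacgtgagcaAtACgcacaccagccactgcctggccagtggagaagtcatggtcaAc

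Selenbp1 (Entrez 20341, chromosome 3, 94933083 to 94944758) was at 394, 480 and 516 CPM in wild-type livers and at 238, 191 and 305 CPM in Mettl3-deficient livers, without overlap. Its means were 463 ± 62.6 and 245 ± 57.1 CPM (SD, n = 3), a log2 change of -0.92 ± 0.25 (adjusted p = 0.0321). The call was lost without WT2 (adjusted p = 0.0993), WT3 (0.107), D1 (0.114) or D2 (0.0661), and with the replicate number as a block (0.0520). With library size alone the value was -0.45 (0.128). Selenbp2 (Entrez 20342, chromosome 3, 94693573 to 94704406) was at 1155, 239 and 408 CPM in wild-type livers and at 154, 43.7 and 54.8 CPM in Mettl3-deficient livers. WT1 was far above all other livers, and D1 was the highest of its group. The means were 600.5 ± 487 and 84.1 ± 60.5 CPM, and Selenbp2 was 7.14-fold lower (log2 change -2.84 ± 0.73, adjusted p = 0.0323). With all 6 libraries this was the largest change among the members, but without WT1 the value was -1.95 (adjusted p = 0.0437), smaller than that of Dio1 (-2.48). The call was lost without WT3 (adjusted p = 0.0572), D2 (0.115) or D3 (0.0885), and with no filter on low counts (0.0678).

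Selenbp2 held 74.5%, 33.3% and 44.1% of the summed counts of the pair in wild-type livers and 39.2%, 18.6% and 15.2% in Mettl3-deficient livers. These shares overlapped between the groups, since D1 lay above WT2. The sum itself was 1549, 719 and 924 CPM in wild-type livers and 392, 235 and 360 CPM in Mettl3-deficient livers. Counted as 1 feature, the pair was 3.24-fold lower (log2 change -1.69 ± 0.36, adjusted p = 0.0157). This value does not depend on how counted reads were divided between them, but whether reads matching both were counted is not stated.

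**Figure D4:**
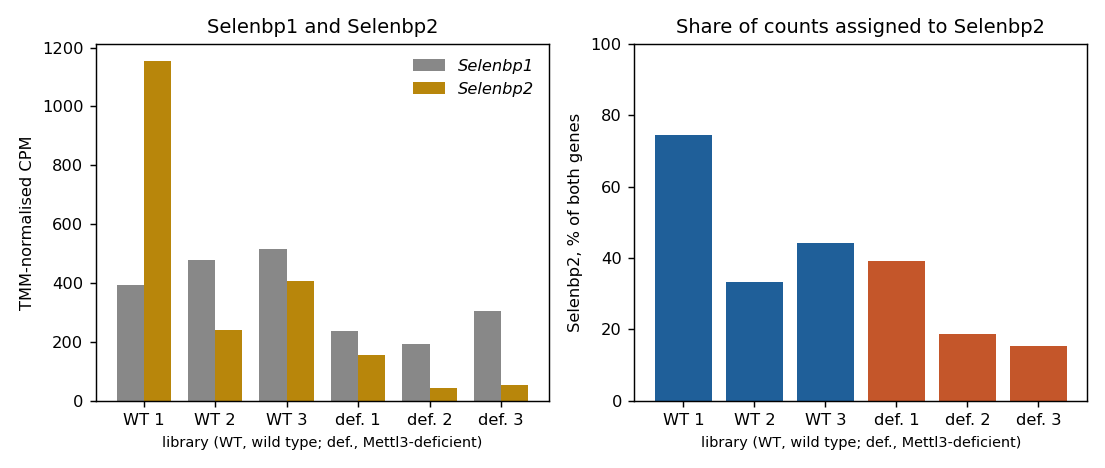
Left, TMM-normalised CPM of Selenbp1 and Selenbp2 (y axis) in each of the 6 libraries (x axis). Right, the share of the pair's counts assigned to Selenbp2 in percent (y axis), which was highest in wild type replicate 1 at 74.5% and lowest in Mettl3-deficient replicate 3 at 15.2%.

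Because the sexes were not balanced, the difference was also taken among the libraries with Y-linked counts (1 wild-type, 2 Mettl3-deficient) and among those without (2 wild-type, 1 Mettl3-deficient), as log2 ratios of mean CPM that allow no test. With and without Y-linked counts they were -0.75 and -1.01 for Selenop, -1.19 and -0.64 for Sephs2, and -1.43 and -1.91 for Dio1. They were -1.59 and -1.02 for Msrb1, -0.58 and -1.07 for Gpx1, and -0.996 and -0.467 for Selenof. For Selenbp1 they were -0.88 and -0.71, and for Selenbp2 -3.55 and -2.56. So these 8 members were lower on each side, while Gpx4 (-0.09 and 0.14) changed sign and Gpx3 (0.14 and 0.87) was above 0 on each side. In a fit with a covariate for Y-linked counts 6 members fell: Selenof (-0.73, adjusted p = 0.0314) was called and Selenop (-0.88, 0.0545) was not.

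To compare members with each other, levels were divided by gene length (CPM per kilobase of all annotated exons). On that scale Selenop was the highest in wild-type livers at 2608 ± 595, followed by Gpx1 at 1352 ± 193, Sephs2 at 558 ± 40.1 and Msrb1 at 333 ± 17.4. Selenbp2 (264 ± 215), Selenbp1 (204 ± 27.5) and Gpx4 (185 ± 31.9) followed, and neighbours from Msrb1 to Gpx4 lay within their SDs of each other. Dio1 was at 83.1 ± 38.8, Selenof at 38.3 ± 9.02 and Gpx3 lowest at 7.90 ± 4.31. In Mettl3-deficient livers the first 3 places were held by Selenop (1255 ± 257), Gpx1 (746 ± 197) and Sephs2 (274 ± 85.5). Gpx4 (200 ± 13.9) came next, ahead of Msrb1 (128 ± 40.8), Selenbp1 (108 ± 25.1) and Selenbp2 (37.0 ± 26.7). Selenof (24.3 ± 1.07), Dio1 (18.9 ± 9.31) and Gpx3 (12.7 ± 7.37) ended the order, and neighbours from Selenbp2 to Gpx3 lay within their SDs of each other. Using the longest RefSeq-linked transcript as the length changed the place of 6 members in each group, and in Mettl3-deficient livers it put Gpx4 (346) ahead of Sephs2 (274).

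The rest of the selenoproteins went both ways. Of the 16 other selenoprotein genes, Dio2, Dio3 and Selenov were too low to test. Of the 13 tested, 3 fell, 2 rose and 8 were not called, with a median log2 change of -0.09. Over all tested genes 10.5% fell and 13.3% rose. Selenoo, a mitochondrial protein that attaches AMP to other proteins, fell from 45.8 ± 3.89 to 14.95 ± 4.87 CPM (log2 change -1.62 ± 0.24, adjusted p = 0.00538). Selenon, a membrane protein of the endoplasmic reticulum, rose from 3.17 ± 0.436 to 8.37 ± 0.656 CPM (1.40 ± 0.23, adjusted p = 0.00742). Each of these 2 was called in all 6 fits that left out 1 library. Selenow, a small redox protein, fell by 0.82 ± 0.19 on the log2 scale (adjusted p = 0.0211), a call lost without WT2 (0.0789), WT3 (0.0673) or D1 (0.0703), and with library size alone (0.132). Selenot, of the endoplasmic reticulum, fell by 0.63 ± 0.18 (adjusted p = 0.0393). Its call was lost without any 1 of the 6 libraries, with adjusted p from 0.0579 to 0.103. It was also lost with library size alone (-0.16, 0.521), upper-quartile factors (0.0505), no filter on low counts (0.0573) and the replicate number as a block (0.0742).

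Gpx2, the gastrointestinal glutathione peroxidase, rose from a very low level, at 0.213, 0 and 0.222 CPM in wild-type livers and 1.39, 0.930 and 1.11 CPM in Mettl3-deficient livers (log2 change 2.96 ± 0.79, adjusted p = 0.032). These levels rest on 0 to 6 counts per wild-type and 42 to 56 per Mettl3-deficient library. The call was lost without WT3 (adjusted p = 0.0686), D1 (0.107), D2 (0.0701) or D3 (0.0567), and with the Y-linked covariate (0.0518). Not called were Selenok, a membrane protein of the endoplasmic reticulum, at -0.77 (adjusted p = 0.0939), and Txnrd1, the cytosolic thioredoxin reductase, at 0.36 (0.187). Selenok was called with the Y-linked covariate (-0.96, adjusted p = 0.0153) and with the replicate number as a block (-0.73, 0.0343). Txnrd1 was called with library size alone (0.84, 0.0124). Over all 21 tested selenoprotein genes, members included, 7 fell and 2 rose, against 10.5% and 13.3% of all tested genes. Their median was -0.29.

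**Figure D5:**
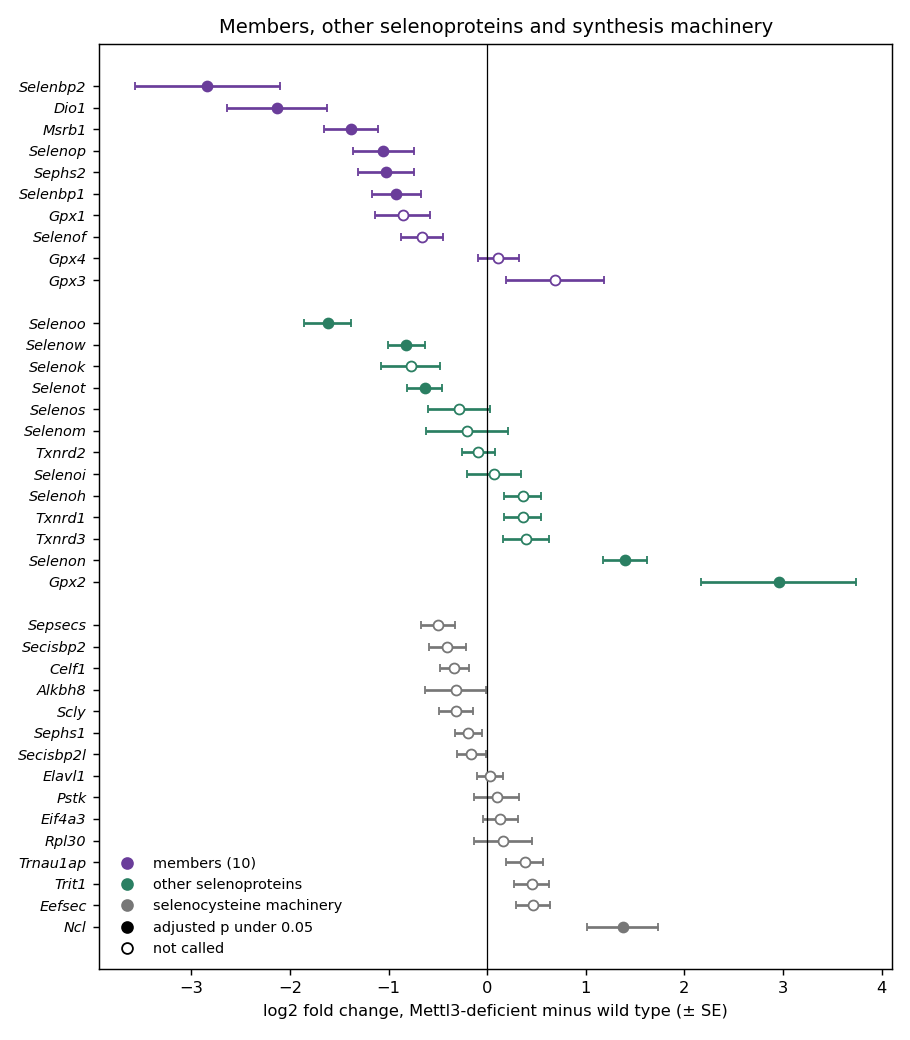
log2 fold change, Mettl3-deficient minus wild type, with its SE (x axis), filled where the edgeR adjusted p is under 0.05. The y axis holds the 10 members, 13 other tested selenoproteins and 15 genes listed for selenocysteine synthesis and insertion. Values of the members reach from -2.84 to 0.69 and those of the other selenoproteins from -1.62 to 2.96. Those of the 15 listed genes reach from -0.50 to 1.38, the upper end being Ncl.

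Apart from Sephs2, which is a member and fell, the listed genes for selenocysteine synthesis and insertion were mostly not called, like most tested genes. The list includes genes with wider roles, such as Ncl. Of the 15 listed, Sephs2 aside, 0 fell by edgeR and 1 rose, against 10.5% and 13.3% of all tested genes. The median over the 15 was 0.03. Of those below 0, 1 (Sepsecs) had an unadjusted p under 0.05, and DESeq2 called 2 lower. The gene that rose was Ncl, nucleolin, an abundant nucleolar protein that also binds the selenocysteine insertion hairpin, at 170, 197 and 211 CPM in wild-type and 399, 794 and 308 CPM in Mettl3-deficient livers (log2 change 1.38 ± 0.36, adjusted p = 0.0303). The call of Ncl was lost without WT1 (adjusted p = 0.0678), WT2 (0.0927), WT3 (0.0804) or D1 (0.0615), and with the Y-linked covariate (0.0742). Sepsecs, which forms selenocysteine on its tRNA, had a value of -0.50 ± 0.17 (adjusted p = 0.0682), and Eefsec, the elongation factor for selenocysteine, one of 0.46 ± 0.17 (0.0829). With library size alone, 6 of the 15 were called higher, and so were 4810 of all 14380 tested genes.

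A list of 5 genes covered selenoprotein P receptors and selenium methylation. Of the 4 tested, 2 fell and 0 rose, against 10.5% and 13.3% of all tested genes. Inmt and Tpmt encode methyltransferases that can methylate selenium compounds. Inmt fell from 1299 ± 408 to 392 ± 193 CPM (log2 change -1.73 ± 0.42, adjusted p = 0.024) and Tpmt from 71.0 ± 12.05 to 33.7 ± 13.1 CPM (-1.07 ± 0.29, 0.0346). The Inmt call was lost without WT2 (adjusted p = 0.0797), WT3 (0.0674), D2 (0.0516) or D3 (0.0563), and that of Tpmt without any 1 library except D3, with adjusted p up to 0.0969. With the Y-linked covariate the adjusted p was 0.0552 for Inmt and 0.0544 for Tpmt, and with library size alone 0.102 for Tpmt. Of the lipoprotein receptor genes, Lrp1 had a log2 change of -0.38 (adjusted p = 0.351). Lrp2, a receptor for selenoprotein P, had one of -2.81 (0.132), with 4.01 CPM in WT1 and at most 0.405 CPM elsewhere. DESeq2 called Lrp2 lower (adjusted p = 0.0405), and without WT1 its value was -0.35 (0.808). Lrp8, the other such receptor, was too low to test.

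Among 11 genes of the glutathione and thioredoxin systems that work with these enzymes, 3 fell, 1 rose and the median was -0.23. Over all tested genes 10.5% fell and 13.3% rose. Cat, which encodes catalase, fell by 1.19 ± 0.31 on the log2 scale (adjusted p = 0.0288), Sod1 by 1.01 ± 0.23 (0.0199) and Sod2 by 0.66 ± 0.19 (0.0402). Gss, glutathione synthetase, rose by 0.71 ± 0.17 (adjusted p = 0.0256). The call of Cat was lost without any 1 wild-type library or D1 (adjusted p up to 0.0955), and that of Sod1 without WT2, WT3 or D1 (up to 0.0719). The call of Sod2 was lost without any 1 library except WT1 (up to 0.143), and that of Gss without WT2, WT3, D1 or D2 (up to 0.0965). With library size alone Cat (0.0661), Sod1 (0.0736) and Sod2 (0.467) were not called. Sod2 was also not called with no filter on low counts (0.0571) or with the Y-linked covariate (0.0556). With the replicate number as a block neither Sod2 nor Gss was called. Prdx6, a peroxiredoxin, had a log2 change of -0.81 (adjusted p = 0.0617) and Gsr, glutathione reductase, one of 0.52 (0.133), and neither was called. In other settings Prdx6 was called by DESeq2 and without D3, and Gsr with library size alone and without D3.

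Sequence features that the choice of members did not use were set beside the fold changes, as descriptions with no test. mRNAs with a stop codon well ahead of their last exon junction are known to be open to nonsense-mediated decay, and a selenocysteine codon can be read as such a stop. Of the 21 tested selenoprotein mRNAs, 13 had their first in-frame TGA more than 50 bases upstream of the last junction, and of these 8 had values below 0 and 5 above, with a median log2 change of -0.21. Of the 7 with that codon nearer to or past the last junction, 4 were below 0 and 3 above, with a median of -0.29, and Sephs2, in 1 exon, has no junction. Dio1 (303 bases upstream), Gpx4 (342 bases) and Gpx3 (240 bases) are all in the first class with values of -2.13, 0.11 and 0.69, so members of this class differed widely among themselves. In the other class Msrb1 (34 bases) and Selenoo (147 bases past the junction) fell, and Txnrd1, Txnrd3 and Selenoi had values of 0.36, 0.39 and 0.07. In the first class 4 were called lower and 2 higher, and in the other class 2 lower and 0 higher. Over all tested genes 10.5% were called lower and 13.3% higher. Whether decay had a part in these changes was not tested.

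The short motif GGACT, a frequent form of the site that Mettl3 methylates, was counted on the RNA strand of 1 mRNA per gene. It was present in 8 of the 10 members, with 6 matches in Sephs2, 3 in Selenop, 2 each in Gpx1, Selenof, Selenbp1 and Selenbp2, and 1 each in Dio1 and Msrb1. Gpx3 and Gpx4 had 0 matches. Among the other selenoproteins, Gpx2 (2 matches) and Selenon (4) rose, and Selenoo, Selenot and Selenow (2 each) fell. Selenom and Selenos, with 0 matches, had log2 changes of -0.21 and -0.29. Any link between the motif and the changes was not tested. The median over the members was 1.17 per kilobase, against 1.04 over 20502 genes. Within 150 bases of the end of the coding sequence, where m6A is often found, it was present in Sephs2, Selenbp1 and Selenbp2, 3 of 10 members, against 32.6% of 16643 genes with such a window. Methylation itself was not measured in these libraries.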

How the data were processed

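The submitters' protocols, per the labels, give TRIzol extraction from flash-frozen liver, Ribo-Zero Gold depletion and a directional kit. Deposited values are raw counts per Entrez gene, which the authors did not normalize. HISAT2, featureCounts and mm10 are named, per the submitters' processing notes. Versions, annotation and strand setting: not given in the sources used here, so overlapping antisense genes may share counts. Symbols and coordinates came from RefSeq (GRCm38.p6, the assembly behind mm10), matching 25275 of 27179 identifiers.

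The main test was edgeR 4.0.16 under R 4.3.3: robust quasi-likelihood F test (two-sided), group as the single term, TMM, filterByExpr (minimum count 10, minimum total 15). All 14380 passing genes were fitted, and 10 of 10 members passed. SEs derive from F. The labels do not say that each library is a separate animal, so p-values measure only the spread between these samples; Y-linked counts differ within each group, so each holds more than 1 animal. The code was tested on simulated data. mRNAs are GENCODE M21 protein-coding transcripts tied to a curated RefSeq mRNA, principal isoform first, then longest coding sequence. Promoters are RefSeq's (GRCm38.p6; 10 of 10 members matched). Protein sequences were planned and were not used here, and 1 listed gene is not reported here.

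Members and lists were chosen with earlier results of these data known. Named were all members, every called list gene and, of up to 4 uncalled per list that the rule allowed, the 2 with the smallest p. Alternatives: RLE, upper-quartile or library-size scaling; the 20 most abundant genes removed; DESeq2 1.42.0; limma-voom 3.58.1; other low-count filters (none, or CPM of at least 1 in 3 libraries); a replicate block; a covariate for over 100 Y-linked counts; Selenbp1 and Selenbp2 summed; a prior count of 2; another gene length; each library left out.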

Additional observations from a re-analysis of the deposited data

How the results depend on the processing

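Each of the 10 members kept its direction under every alternative in which it was tested; Selenop is among the 20 most abundant genes and was not tested without them. Members that fell, 6 in the reported fit, numbered 3 under scaling by library size and 3 with the replicate number as a block, and ranged from 1 to 6 when 1 library was left out; 0 rose in any. Same-numbered libraries' deviations correlated at 0.08, -0.01 and 0.04, so the numbers were not taken as pairing, and not every library correlated best with its own number. Genes called over the whole table fell from 3420 to 1425 without WT2, 1542 without WT3, 1382 without D1 and 1859 without D2, and rose to 5405 under library size, where 89.0% of calls were higher (55.7% with TMM) and the members' median was -0.51. There Lrp1 turned to 0.0863 and Thra to 0.320; Thra ranged from -0.330 without D3 to 0.0127 without WT1. Other selenoproteins called higher, 2 as reported, numbered 5 under library size and 1 with the Y-linked covariate; those called lower, 3 as reported, numbered 1 and 5. The causes were not tested.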
